A study of Homo sapiens with 12 samples.

Results

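The 8 kinases CLK1, CLK2, CLK3, CLK4, SRPK1, SRPK2, DYRK1A and PRPF4B, all of which phosphorylate SR proteins or act in pre-mRNA splicing, were represented by 19 of the 41000 gene probes of a whole-genome expression array. The probes were found through the RefSeq transcript named for each probe, which a RefSeq gene table assigns to a gene, and all of them were kept whatever their values. The arrays were hybridised with RNA from H358, a human lung adenocarcinoma cell line, to measure which transcripts change when the splicing factor SRSF2 is over-expressed. All samples came from 1 inducible clone, H358/Tet-On/SRSF2, whose SRSF2 transgene is under a Tet-responsive promoter. The cells of 6 arrays were labelled control, with no treatment named. Those of 6 further arrays were labelled SRSF2 over-expression, for which doxycycline (1 µg/mL, 24 hours) was the inducer. An induction of 24 hours is given for the control arrays too, so whether their cells received doxycycline is not clear. Effects of SRSF2 and of doxycycline itself cannot be told apart in this comparison.

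SR proteins are splicing factors that carry a domain rich in arginine and serine, and the serines of that domain are phosphorylated. The SRPK kinases act mainly in the cytoplasm, where phosphorylation directs SR proteins into the nucleus. The CLK kinases are nuclear, phosphorylate the same domain more extensively and release SR proteins from nuclear speckles, and CLK transcripts are themselves alternatively spliced. SRSF2 is one of the substrates.

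The 12 arrays lay on 3 slides, each with 2 arrays of both conditions, so slide and condition were balanced. Between 54.2% and 68.0% of the spots on an array were well above background, the 75th percentile of an array's signal ran from 796 to 1100, and no spot was saturated. All 5 epithelial markers and 3 of 4 lung adenocarcinoma markers were well above background on all 12 arrays, while SFTPB, which encodes a surfactant protein, was so on 2 arrays. Among markers of other cells, PTPRC of leukocytes was well above background on 0 arrays, ALB of hepatocytes on 5 and PECAM1 of endothelium on 12. The single probe of SRSF2, A_23_P77776, went against the label. Signals are given here as log2 of the processed signal minus log2 of the array's 75th percentile, called the relative log2 signal. That of SRSF2 fell from 3.92 ± 0.10 with the control label to 2.47 ± 0.10 with the over-expression label (SD, n = 6 each), a change of -1.46 (standard error 0.06, limma adjusted p = 1.68e-09). Which stretch of the SRSF2 transcript this probe reads, and so whether it can detect the transgene, is not given in the files used here. Whether the labels of the conditions were exchanged was not tested, and every direction below would turn if they were. Directions therefore compare the arrays labelled SRSF2 over-expression, for short the SRSF2-labelled arrays, with the control arrays. The labels do not say that the arrays of a condition came from separate cultures. The study describes 3 labeling experiments, each with 2 of these arrays per condition, so arrays sharing a labeling are technical replicates. The p-values therefore measure the spread between arrays, which is at least in part technical. Taken as 3 labelings against 3, no exact p under 0.1 could be reached.

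CLK1 and CLK4 probes moved together in these arrays, and the starts of both genes are shown for that reason. The 250 bases before a RefSeq transcript start (GRCh38.p14, minus strand) were chr2:200864659-200864908 for CLK1 and chr5:178627051-178627300 for CLK4. They are printed 5′ to 3′ toward the start, with capitals marking CGTCA, the reverse complement of TGACG, the core of the cAMP response element.
CLK1: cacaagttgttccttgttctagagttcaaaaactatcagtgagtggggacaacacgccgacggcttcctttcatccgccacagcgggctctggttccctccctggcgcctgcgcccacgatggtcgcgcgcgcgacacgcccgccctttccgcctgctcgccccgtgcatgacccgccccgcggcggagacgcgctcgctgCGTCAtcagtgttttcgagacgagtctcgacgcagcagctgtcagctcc
CLK4: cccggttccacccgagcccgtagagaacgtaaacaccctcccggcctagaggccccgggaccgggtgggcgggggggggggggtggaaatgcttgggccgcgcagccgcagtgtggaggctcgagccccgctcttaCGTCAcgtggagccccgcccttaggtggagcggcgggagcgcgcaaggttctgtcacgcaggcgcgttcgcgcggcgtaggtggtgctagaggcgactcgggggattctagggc
This core began at position -49 before the start in CLK1 and at -114 in CLK4. RefSeq gives a further CLK1 start, before which the same core lies at -146, and in CLK4 it overlapped an E-box, CACGTG, at -111. On either strand TGACG was present in 21.2% of all 35116 RefSeq promoter windows of this length and in 6 of the 18 windows of the kinase genes, which belong to 5 genes. The E-box was present in 6.34% of all windows and in 3 of the kinase windows, and the GC box GGGCGG in 42.6% and in 11. These letters were searched after the promoters had been seen, and a match describes the sequence only. No promoter was measured in these samples.

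Of the 19 kinase probes, 17 passed the filter on dim probes and were tested, 15 of them well above background on all 12 arrays. With 2-fold as the least change and 0.05 as the highest limma adjusted p, 4 kinase probes rose, both probes of CLK1 and both of CLK4, and 0 fell. One of them, CLK1 A_24_P257151, passed the filter only through the condition in which it is high, and without it 3 of 16 tested probes rose. Over all 24336 probes tested, 3.69% rose and 3.32% fell by this rule. No kinase probe fell 2-fold at an unadjusted p either, nor with the methods' t-test. At the adjusted p alone, 7 kinase probes rose (2 of CLK1, 3 of CLK3, 2 of CLK4; 6 without that probe) and 3 fell (2 of CLK2 and the probe of SRPK1), against 29.7% and 28.0% of all probes. On 8 of the 17 tested probes no value of one condition lay within the range of the other, which was the case for 40.2% of all probes. The median log2 fold change was 0.15 over the 17 kinase probes and 0.011 over all probes, and the median size of the change was 0.56 and 0.30. The 7 probes that did not pass belonged to CLK2, SRPK2, DYRK1A and PRPF4B.

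**Figure D1:**
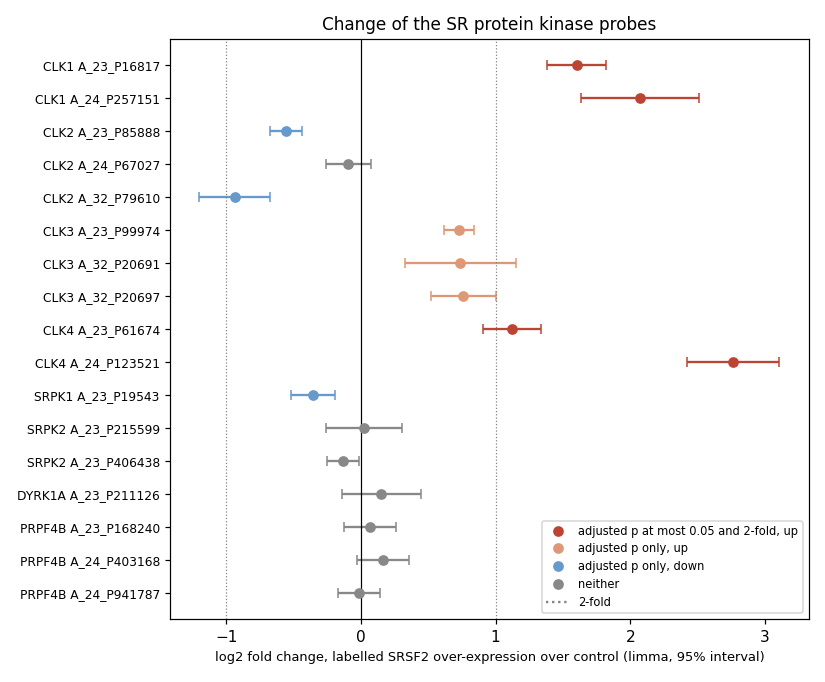
Log2 fold change of the 17 tested kinase probes (arrays labelled SRSF2 over-expression over control, limma estimate as a point with its 95% interval as a bar, n = 6 arrays per condition). Dotted lines mark a 2-fold change. The 4 probes of CLK1 and CLK4 lie between 1.12 and 2.77, the 3 probes of CLK3 between 0.73 and 0.76, and the 3 probes of CLK2 at or below -0.10.

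CLK1, a nuclear kinase with specificity for both serine or threonine and tyrosine, was measured by 2 probes. The relative log2 signal of A_23_P16817 was -0.72 at the lowest, -0.64 at the median and -0.52 at the highest on the control arrays. On the SRSF2-labelled arrays it was 0.72, 0.90 and 1.34. The conditions lay far apart, and the highest values of the SRSF2-labelled arrays, 1.18 and 1.34, were those of slide 1. The mean rose from -0.64 ± 0.07 to 0.96 ± 0.25 (SD, n = 6 each), a log2 fold change of 1.60 (standard error 0.10, 95% interval 1.38 to 1.82, limma adjusted p = 4.50e-08) or 3.03-fold. In the exact two-sided permutation test of this probe p was 0.00216, the smallest that 6 arrays against 6 allow.

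The other CLK1 probe, A_24_P257151, lay nearer to the background. Its relative log2 signal was -4.43, -3.91 and -3.79 (lowest, median, highest) on the control arrays and -2.49, -2.10 and -1.32 on the others. Again the conditions did not overlap, and slide 1 held the 2 highest values of the SRSF2-labelled arrays. The fitted difference was 2.07 on the log2 scale (standard error 0.20). The probe was well above background on 4 of the 6 control arrays and on all 6 others, so it entered the test only through the condition in which it is high, and its p-value is given no weight. Without background subtraction the difference was 1.26. With normexp, another background correction, it was 0.53 (limma adjusted p = 0.545), while A_23_P16817 rose by 1.20 (adjusted p = 0.00127).

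CLK4, a close relative of CLK1 with the same class of substrates, was also measured by 2 probes. The relative log2 signal of A_23_P61674 was -2.51, -2.28 and -2.01 (lowest, median, highest) on the control arrays and -1.42, -1.09 and -0.91 on the SRSF2-labelled arrays. That of A_24_P123521 was -4.49, -4.31 and -3.86 and then -1.73, -1.55 and -0.92. Neither probe showed any overlap between the conditions. A_23_P61674 rose by 1.12 on the log2 scale (standard error 0.10, 95% interval 0.90 to 1.34, limma adjusted p = 9.34e-07), or 2.17-fold. A_24_P123521 rose by 2.77 (standard error 0.16, 95% interval 2.42 to 3.11, limma adjusted p = 1.79e-08), the change of rank 46 among the rises of all 24336 probes. It was well above background on 5 of the 6 control arrays. Without background subtraction the changes were 0.88 and 2.05, and with normexp they were 0.44 (limma adjusted p = 0.392) and 1.13 (0.0854), neither past the threshold. CLK1 and CLK4 are similar in sequence and the probe sequences are not in the files used here, so how far a probe of one reads the other was not tested.

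CLK3, the remaining CLK kinase with higher signals, changed by nearly the same amount on all 3 of its probes. The relative log2 signal of A_23_P99974 was -1.58, -1.52 and -1.41 (lowest, median, highest) on the control arrays and -0.93, -0.75 and -0.72 on the others. That of A_32_P20697 was 0.47, 0.73 and 0.88 and then 1.18, 1.41 and 1.83, also without overlap. For A_32_P20691 it was 1.01, 1.5 and 2.04 and then 1.82, 2.27 and 2.53, so that control arrays of slide 1 reached the level of SRSF2-labelled arrays of slide 2, although the conditions were apart within each slide. The log2 fold changes were 0.73 (standard error 0.05, limma adjusted p = 9.79e-08) for A_23_P99974, 0.76 (0.11, 7.69e-05) for A_32_P20697 and 0.74 (0.19, 0.00488) for A_32_P20691. The exact two-sided permutation p was 0.00216, 0.00216 and 0.0108 in that order. A_32_P20691 did not pass when arrays sharing slide and condition were averaged (limma adjusted p = 0.0605) or when slide 3 was left out (0.0717), nor did A_23_P99974 with normexp (0.32, 0.406).

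CLK2, a nuclear SR protein kinase that also acts in insulin signalling, was the CLK gene with lower signals, on 2 of its 3 probes. The relative log2 signal of A_23_P85888 was -0.49, -0.37 and -0.34 (lowest, median, highest) on the control arrays and -1.09, -0.94 and -0.83 on the SRSF2-labelled arrays. A_32_P79610 gave -1.67, -1.03 and -0.92 and then -2.27, -2.01 and -1.91. In both cases every SRSF2-labelled array lay below every control array, and in the second, control replicate 2 at -1.67 stood apart from the other control arrays. A_23_P85888 fell by 0.56 on the log2 scale (standard error 0.05, limma adjusted p = 1.96e-06), or 1.47-fold, and A_32_P79610 fell by 0.94 (standard error 0.12, limma adjusted p = 2.24e-05), or 1.92-fold. Without control replicate 2 the second fell by 1.05 (limma adjusted p = 2.97e-07) and passed the 2-fold threshold. Scaled on spike-in control probes, A_23_P85888 was at -0.35 (limma adjusted p = 0.224) and A_32_P79610 at -0.73 (0.0158).

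The remaining CLK2 probe, A_24_P67027, gave -1.99, -1.86 and -1.62 on the control arrays and -2.04, -1.89 and -1.81 on the others. The ranges overlapped in part, with control arrays reaching -1.62 and SRSF2-labelled arrays no more than -1.81. Its log2 change was -0.10 (standard error 0.08, 95% interval -0.26 to 0.07, limma adjusted p = 0.315).

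**Figure D2:**
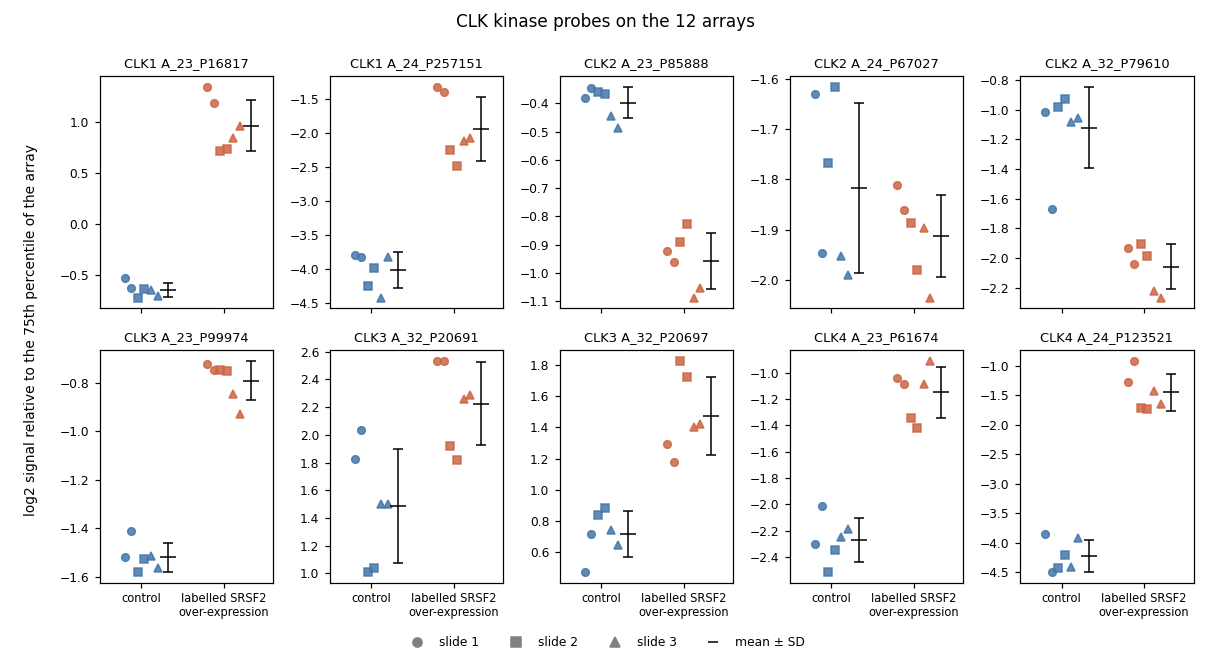
Relative log2 signal (log2 signal minus log2 of the array's 75th percentile) of the 10 probes of CLK1 to CLK4 on each of the 12 arrays, by condition (6 arrays each). Marker shapes give the slide, and bars the mean ± SD. Each panel has its own vertical scale. On the CLK1 and CLK4 probes all SRSF2-labelled arrays lie above all control arrays, A_32_P20691 of CLK3 overlaps between slides, and A_24_P67027 of CLK2 overlaps in part.

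Probes of one gene can read different transcripts, so their changes were set against each other within each array, which does not depend on a scaling by 1 factor per array. Over the 12 pairs of tested probes in 6 kinases, 5 pairs in 3 genes differed (exact two-sided permutation test, Benjamini-Hochberg adjusted over the 12 pairs). The share over such pairs of other genes was not computed. The 2 CLK4 probes differed most, with A_23_P61674 changing by 1.65 less than A_24_P123521 on the log2 scale (difference -1.65, exact p = 0.00216, adjusted p = 0.00866). For CLK1 the difference was -0.47, A_23_P16817 minus A_24_P257151. This pair counts among the 5, but A_24_P257151 entered the test only through the condition in which it is high. No p-value is therefore given for the pair. Without it, the pairs that differed were those of CLK2 and that of CLK4. In CLK2 all 3 pairs differed, by -0.46 for A_23_P85888 minus A_24_P67027 (adjusted p = 0.00866, exact permutation test), 0.38 for A_23_P85888 minus A_32_P79610 (0.0364) and 0.84 for A_24_P67027 minus A_32_P79610 (0.00866). The 3 CLK3 pairs differed by -0.0081, -0.033 and -0.024 (adjusted p = 0.959 for each, exact permutation test). In SRPK2 the difference was 0.16 (adjusted p = 0.562, exact permutation test), and in PRPF4B the adjusted p lay between 0.255 and 0.779. The background correction moved these differences. With normexp they were -0.69 for CLK4, 0.67 for CLK1, and -0.17, 0.26 and 0.44 for the CLK2 pairs. Without background subtraction the CLK1 difference was 0.17, so that its direction depends on how the background is treated, and that of CLK4 -1.17.

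SRPK1, the mainly cytoplasmic kinase that sends SR proteins to the nucleus, was measured by 1 probe, A_23_P19543. Its relative log2 signal was 4.10, 4.33 and 4.38 (lowest, median, highest) on the control arrays and 3.73, 3.96 and 4.11 on the SRSF2-labelled arrays. On 5 of the 6 SRSF2-labelled arrays it lay below every control array, and the remaining one just above the lowest. The mean fell from 4.28 ± 0.11 to 3.93 ± 0.14 (SD, n = 6 each), a log2 fold change of -0.35 (standard error 0.08, 95% interval -0.52 to -0.19, limma adjusted p = 0.00136) or 1.28-fold, with an exact two-sided permutation p of 0.00433. Scaled on spike-in controls the change was -0.15 (limma adjusted p = 0.663), and with normexp -0.19 (0.601).

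SRPK2, the paralog of SRPK1, had 2 probes, and neither passed the threshold. A_23_P215599 gave a relative log2 signal of -2.21, -1.52 and -1.34 on the control arrays and -1.76, -1.53 and -1.44 on the others, with a log2 fold change of 0.02 (standard error 0.13, 95% interval -0.26 to 0.31, limma adjusted p = 0.890). The lowest control value was again that of replicate 2, and without it the change was -0.10 (limma adjusted p = 0.265). A_23_P406438 gave -1.0, -0.84 and -0.79 and then -1.10, -1.01 and -0.87. Its ranges overlapped, although 3 of the 6 SRSF2-labelled arrays lay below every control array. The log2 change was -0.13 (standard error 0.05, 95% interval -0.25 to -0.02, limma adjusted p = 0.0518), and it passed the threshold under 7 of 17 alternative settings.

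DYRK1A, a kinase encoded on chromosome 21 that phosphorylates several SR proteins, had 3 probes, of which A_23_P211126 could be tested. It gave a relative log2 signal of -1.57, -0.97 and -0.74 on the control arrays and -1.13, -0.79 and -0.68 on the others. The ranges overlapped, and the lowest value was that of control replicate 2. The log2 change was 0.15 (standard error 0.14, 95% interval -0.14 to 0.45, limma adjusted p = 0.366). A_24_P322753 and A_24_P62169 were well above background on 0 of the 12 arrays, so no fold is given for them.

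PRPF4B, the pre-mRNA processing kinase that RefSeq now names PRP4K, had 3 probes, and none of them passed the threshold. A_23_P168240 gave a relative log2 signal of -2.58, -2.35 and -2.07 on the control arrays and -2.43, -2.29 and -2.07 on the others. A_24_P403168 gave -2.63, -2.50 and -2.23 and then -2.46, -2.28 and -2.15. A_24_P941787 gave 1.64, 1.73 and 1.87 and then 1.56, 1.69 and 1.92. The ranges of the conditions overlapped on all 3 probes. The log2 fold changes were 0.07 (95% interval -0.13 to 0.26, limma adjusted p = 0.549), 0.16 (-0.03 to 0.35, 0.134) and -0.02 (-0.17 to 0.14, 0.870). With a block A_24_P403168 passed (limma adjusted p = 0.0242 for slide, 0.0493 for replicate number), while with the arrays of a slide averaged it did not (0.358). Over the 6 tested probes of SRPK2, DYRK1A and PRPF4B, limma called 0 at the adjusted p and 1 at an unadjusted p of at most 0.05, the SRPK2 probe A_23_P406438, which the methods' t-test also called after adjustment.

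Within each slide the difference between the conditions had the sign of the pooled one on all 3 slides for 12 of the 17 tested probes. These included the 10 probes past the adjusted threshold, among them CLK1 A_24_P257151, which entered only through the condition in which it is high. The pooled difference is the mean of the slide differences, so a shared sign of probes past the threshold is no separate support. The share over all tested probes was not computed. For CLK1 the differences on slides 1, 2 and 3 were 1.83, 1.40 and 1.57 on A_23_P16817 and 2.45, 1.75 and 2.03 on A_24_P257151. For CLK4 they were 1.09, 1.05 and 1.22 on A_23_P61674 and 3.08, 2.60 and 2.62 on A_24_P123521. The CLK3 probes gave 0.73, 0.80 and 0.65 (A_23_P99974), 0.60, 0.84 and 0.77 (A_32_P20691) and 0.64, 0.92 and 0.72 (A_32_P20697). For CLK2 the 3 slides gave -0.58, -0.49 and -0.61 on A_23_P85888 and -0.65, -1.0 and -1.18 on A_32_P79610. SRPK1 gave -0.38, -0.39 and -0.30. The SRPK2 probe A_23_P215599 gave 0.43, -0.21 and -0.14 and the DYRK1A probe 0.46, -0.02 and 0.01, so that both differed in slide 1, which holds control replicate 2.

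**Figure D3:**
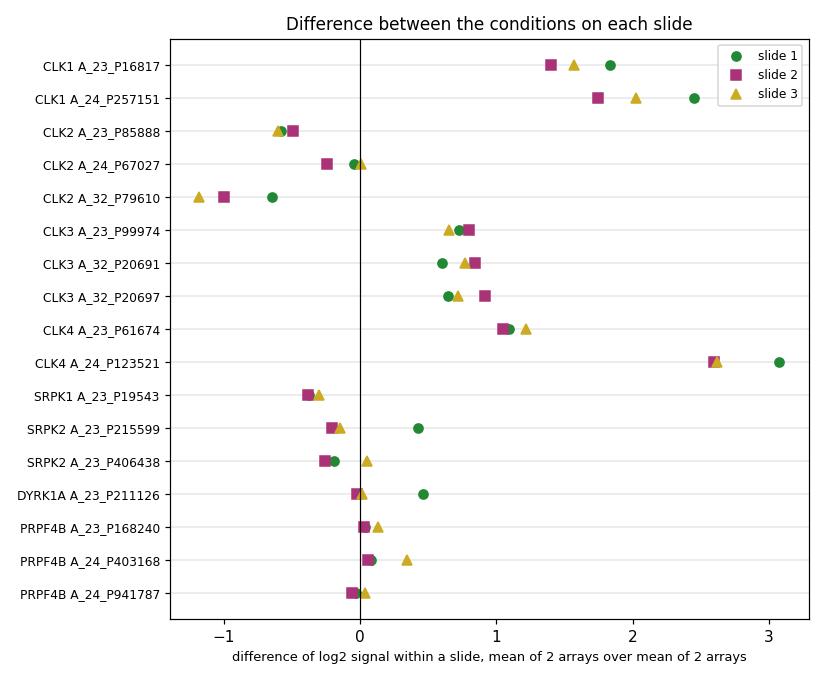
Difference of the log2 signal between the conditions within each of the 3 slides (mean of 2 SRSF2-labelled arrays minus mean of 2 control arrays) for the 17 tested kinase probes. The slide values of CLK1, CLK3 and CLK4 all lie above 0 and those of A_23_P85888 and A_32_P79610 of CLK2 and of SRPK1 below 0, while slide 1 stands apart for A_23_P215599 of SRPK2 and for DYRK1A.

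Genes with the most similar pattern over the 12 arrays were sought for 1 probe each of CLK1 and CLK4, the one with the higher mean signal, among 16014 probes of named genes. For CLK1 A_23_P16817 these were PGRMC2 (Pearson r = 0.998), CENPA (0.996) and RCN1 (0.996). For CLK4 A_23_P61674 they were FASTKD5, STK31 and TAF9B (0.993 each). The arrays share slides and conditions, and such values mostly carry the difference between the conditions, so they are a description only.

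Calls changed with the background correction, the scaling, the blocks, the averaging of arrays and left-out arrays. Over 17 alternatives, 3 probes kept both their direction and their side of the adjusted p threshold throughout, CLK1 A_23_P16817, CLK3 A_32_P20697 and CLK2 A_32_P79610. Direction could not turn under the alternatives of filter, test, block and averaging, which left the log2 fold changes as they were. CLK1 A_23_P16817 ranged from 1.20 to 1.81, CLK3 A_32_P20697 from 0.68 to 0.97 and CLK2 A_32_P79610 from -1.09 to -0.72. The CLK2 probe passed the 2-fold threshold without slide 1 and without control replicate 2. Spike-in scaling moved the median of all probes from 0.011 to 0.219.

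**Figure D4:**
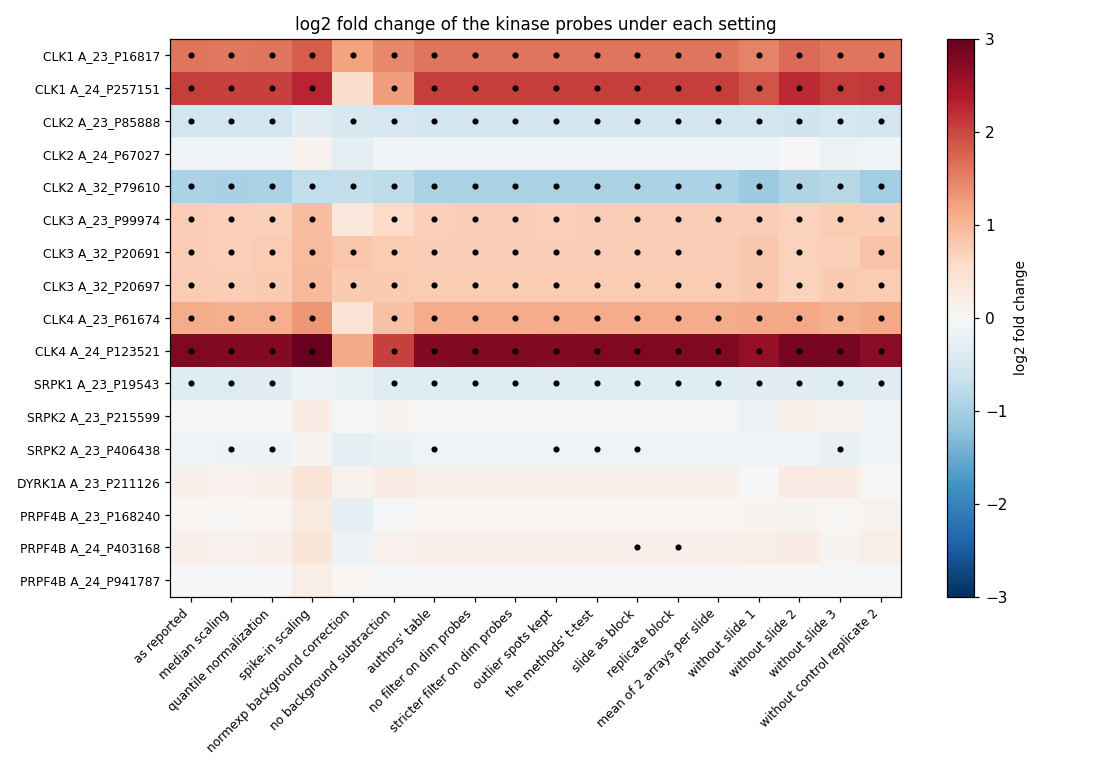
Log2 fold change (colour) of the 17 tested kinase probes under the reported setting and 17 alternatives, with a dot where the adjusted p is at most 0.05. The CLK1 and CLK4 rows are red throughout, A_24_P257151 and both CLK4 probes lose their dots with normexp, and CLK2 A_23_P85888 and SRPK1 lose theirs with spike-in scaling.

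Other genes of SR protein phosphorylation were taken as 3 lists. Of 18 further kinases that act on SR proteins or are close relatives of the members, 14 had a tested probe, and of their 22 tested probes 8 rose, 6 fell and 8 did not pass (limma adjusted p at most 0.05), against 29.7% and 28.0% of all probes. The median log2 fold change was 0.04. Both tested probes of DYRK3 rose, by 0.71 and 0.99, and both of NEK2, a mitotic kinase, rose by 0.78 and 0.97. Over all probes 3.69% rose and 3.32% fell 2-fold. One probe of this list changed 2-fold, A_23_P217804 of CDK11B, a cyclin-dependent kinase tied to splicing. The log2 fold change of this probe was -1.04 (limma adjusted p = 0.00359), with overlapping ranges. The other tested CDK11B probes, A_23_P501460 and A_24_P312915, changed by -0.21 (limma adjusted p = 0.0725) and -0.20 (0.0246).

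Of the phosphatases, import receptors and chaperones, all 14 genes were tested on 35 probes, of which 17 rose, 8 fell and 10 did not pass, beside the same 29.7% and 28.0% over all probes. No probe reached 2-fold, the highest value being 0.87 and the lowest -0.58, beside 3.69% up and 3.32% down. The median was 0.23. Both tested probes of PPP2CA, a catalytic subunit of protein phosphatase 2A, rose, by 0.53 and 0.72. The 3 probes of TNPO1, an import receptor, changed by 0.57, -0.58 and 0.33. The genes whose passing probes all rose numbered 6, those whose passing probes all fell 2, those with both 4, and those with no passing probe 2. Shares of this kind over all named genes were not computed, so these gene counts describe the list only.

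Of the SR proteins, the substrates, 13 of 14 genes were tested on 23 probes, of which 8 rose, 13 fell and 2 did not pass, with a median of -0.27. Over all probes 29.7% rose and 28.0% fell, and at 2-fold 3.69% and 3.32%. TRA2A, a splicing activator, rose 2-fold (log2 fold change 1.11, limma adjusted p = 2.98e-05), and 5 probes fell 2-fold. These were A_23_P363426 and A_32_P17635 of SRSF8 (-1.81 and -1.70), the SRSF2 probe, A_23_P377819 of SRSF5 (-1.18, limma adjusted p = 1.25e-09) and A_24_P148086 of SRSF4 (-1.06). The SRSF4 probe was well above background on 4 of 6 SRSF2-labelled and all control arrays. It entered only through the condition in which it is high, and no weight is given to its test. The other tested probe of SRSF8, A_23_P116016, changed by -0.32 (limma adjusted p = 0.00018). That of SRSF4, A_23_P126197, changed by -0.54 (limma adjusted p = 0.00215).

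**Figure D5:**
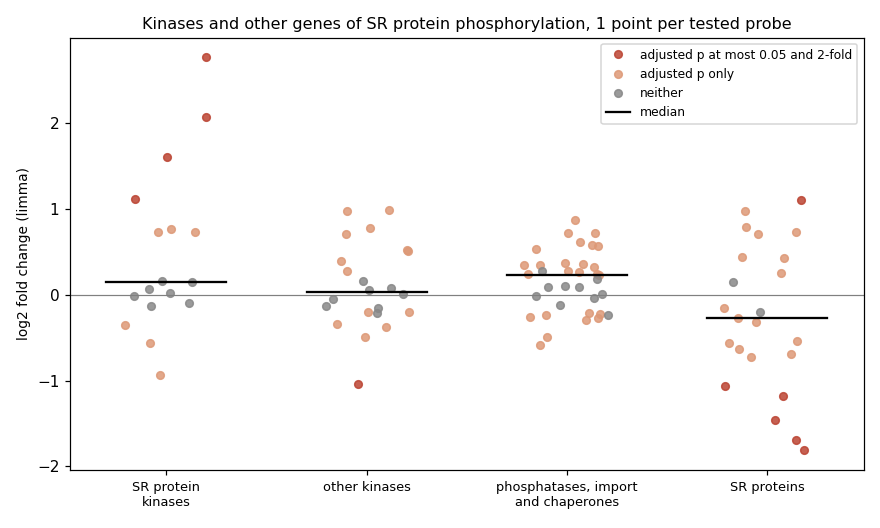
Log2 fold change of every tested probe of the SR protein kinases and of 3 further lists, 1 point per probe (17, 22, 35 and 23 probes), with the median of each list as a line at 0.15, 0.04, 0.23 and -0.27. Colours give the call. The 4 highest points overall are the probes of CLK1 and CLK4.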

How the data were processed

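RNA of the 12 H358 samples was labelled with Cy3 and hybridised to Agilent Whole Human Genome arrays, 1 sample per array. The authors deposited the files that Agilent's Feature Extraction 10.7.3.1 wrote for each array, with a processed intensity per spot from which background has been subtracted. They also deposited a table of log2 values, which correlated at 0.9989 or more on each array with log2 processed intensities scaled to the 75th percentile and then centred per probe. The array annotation in the files uses hg18, and promoter coordinates come only from RefSeq on GRCh38.p14.

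Each processed intensity was put on the log2 scale, repeated spots of a probe were averaged, and each array was set relative to its own 75th percentile over gene probes. Control spots and outlier-flagged spots did not enter. The filter on dim probes asked for a missing share of at most 25% over all arrays and for signal well above background in 5 or more of 6 arrays in either condition, which 24336 probes met. These were fitted with limma 3.58.1 (lmFit, eBayes; R 4.3.3) on condition alone, adjusting by Benjamini-Hochberg over all of them. Single probes and pairs of probes were tested by exact two-sided permutation over 924 arrangements (Python 3.11.15, numpy 2.4.6, pandas 2.3.3). The fit was tested on simulated data. The number of arrays limits the precision.

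RefSeq accessions named 23958 of the 25868 probes that carry one. The members, the lists of further genes and the tests were chosen with earlier results of these data known. Every probe of the 8 kinases is named. From the other lists the text names the probes called at 2-fold, at most 6 per list. It also names the other tested probes of CDK11B, SRSF4 and SRSF8. A few further ones (DYRK3, NEK2, PPP2CA and TNPO1) were chosen after their values were seen.

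The alternatives changed the scaling (median, quantile, 7 spike-in control probes), the background (normexp, offset 50, or none subtracted), the values (the authors' table), the filter (none, or 9 of 12 arrays), the outlier spots (kept), the test (the methods' t-test), the block (slide, or replicate number), the unit (mean of 2 arrays per slide), the slides (each left out) and the fold threshold (1.5). Leaving out control replicate 2 was chosen after seeing the data. Normexp and the setting without subtraction used the median spot intensity, as the columns used here hold no mean.

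Per the labels, arrays are numbered 1 to 6 within each condition. After removal of each condition's mean, same-numbered arrays correlated at 0.277 to 0.639 (6 pairs), other arrays of one slide at 0.327 to 0.655, and arrays of separate slides at -0.477 to -0.0469, so a shared number stands for a shared slide.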

Additional observations from a re-analysis of the deposited data

Results flagged for a closer look

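Over 34 groups of 6 arrays (17 tested kinase probes in both conditions), 2 held a value whose gap to its nearest neighbour, as a share of the whole range, was above the 95% critical value of Dixon's test. Chance alone gives such a gap in about 5% of groups. Both values were those of control replicate 2, on slide 1. On the CLK2 probe A_32_P79610 its relative log2 signal was -1.67, against a median of -1.03 over the control arrays, with the gap at 0.788 of the range. On the SRPK2 probe A_23_P215599 it was -2.21, against a median of -1.52, with the gap at 0.733 of the range. On this array the 75th percentile of the signal was 796, the lowest of the 12.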

How the results depend on the processing

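There were 289 single-probe values (17 probes under 17 alternatives). Of these, 258 kept direction and side of the adjusted p threshold, 9 no longer passed it, 9 newly passed it and 13 turned sign. Alternatives of filter, test, block and averaging left the log2 fold changes of these probes as they were. Under those, direction could not turn and only the adjusted p could move. The count of kinase probes that rose 2-fold was 4, and became 1 with normexp and 7 at a 1.5-fold threshold, while over all probes 897 became 158 and 2845. The count that fell 2-fold was 0, and became 1 without slide 1, without control replicate 2 and at a 1.5-fold threshold (CLK2 A_32_P79610 in each case). At the adjusted p alone, 7 rose and 3 fell, which became 3 rises with normexp and 1 fall with spike-in scaling, while over all probes 7236 rises became 1410 and 6810 falls 1498. The signs that turned were all of probes that had not passed. With spike-in scaling CLK2 A_24_P67027 was at 0.11, SRPK2 A_23_P406438 at 0.076 and PRPF4B A_24_P941787 at 0.19, but relative to the median of all probes they stayed at -0.11, -0.14 and -0.027. With normexp SRPK2 A_23_P215599 was at -0.070, PRPF4B A_23_P168240 at -0.27, PRPF4B A_24_P403168 at -0.15 and PRPF4B A_24_P941787 at 0.049. Without slide 1 SRPK2 A_23_P215599 was at -0.18 and DYRK1A A_23_P211126 at -0.0055, and without control replicate 2 the former was at -0.10. PRPF4B A_24_P941787 was at 0.0081 with quantile normalization and at 0.0049 without slide 2, and PRPF4B A_23_P168240 at -0.025 without background subtraction. The causes were not tested.

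With replicate number as a block, 4 kinase probes rose 2-fold and 0 fell, and at the adjusted p alone 8 rose and 3 fell. Over all probes 897 rose and 811 fell 2-fold with this block. At the adjusted p alone 8293 of all probes rose and 7709 fell, against 7236 and 6810 without a block. With slide as the block these were 8806 and 8243. The added rise among the kinase probes, with replicate number as the block, was PRPF4B A_24_P403168 (0.16, limma adjusted p = 0.0493). It also passed with slide as the block (0.0242). With that block SRPK2 A_23_P406438 also passed (-0.13, 0.0397), and neither block changed another call. With the 2 arrays of a slide averaged the 2 probes did not pass (0.358 and 0.297). Probes near background, above all CLK1 A_24_P257151 and CLK4 A_24_P123521, are limited by their signal over background.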
